A study of Rattus norvegicus with 2 samples.

Results

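Among the 1185 genes of the Atlas Rat 1.2 membrane, 4 belong to the making, storage and recapture of catecholamines by the rule used here. The rule took every row whose deposited name holds dopamine beta-hydroxylase, dopamine transporter, a name of tyrosine hydroxylase, DOPA decarboxylase, catechol, monoamine oxidase or a vesicular amine transporter, and left out receptors. It found dopamine beta-hydroxylase (Dbh, array identifier RG445), the dopamine transporter (Slc6a3, R355), DOPA decarboxylase (Ddc, R280) and the vesicular amine transporter 2 (Slc18a2, R401). No row name held a term for tyrosine hydroxylase, catechol or monoamine oxidase.

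The membranes were probed with RNA from primary cultures of carotid body cells of Sprague Dawley rats, each culture started from 16 pooled carotid bodies. Cells of the normoxia group were kept at 21% oxygen and those of the chronic hypoxia group at 1% oxygen, both for 7 days and both in medium with horse serum, fetal bovine serum and nerve growth factor. The animals' age is not given in the sources used here. Each of the 2 samples holds 3 membranes, numbered 1 to 3, which the labels call replicates without saying that each came from its own culture. Every p-value below therefore rests on membrane-to-membrane spread only, and that spread may be technical. The cultures hold several cell types, and fewer cells of a type and less RNA per cell cannot be told apart in them. The question is which transcripts of cultured carotid body cells differ after a week without normal oxygen.

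Catecholamines are made in a chain. Tyrosine hydroxylase turns tyrosine into DOPA, Ddc turns DOPA into dopamine, and Slc18a2 loads dopamine into vesicles. There Dbh, an enzyme held inside the vesicle, can turn it into noradrenaline. Slc6a3 sits on the cell surface and takes released dopamine back up. The glomus cells of the carotid body, its chemoreceptors, store dopamine and release it when arterial oxygen falls.

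The deposited values are intensities, 1 linear brightness per gene and membrane, with background still in them. Medians ran from 1704 to 3409 on 5 membranes and stood at 16411 on chronic hypoxia membrane 3. The limit for a spot to count as above background was set, for each membrane, at the median plus 3 root mean square deviations of the dimmer spots from it, here called spreads. By that limit 72 to 205 genes were above background on a membrane, 49 of 1185 (4.14%) on all 6 and 867 (73.2%) on none. The fewest were on chronic hypoxia membrane 2 and the most on normoxia membrane 3. Spearman's rho over all genes was 0.772 between chronic hypoxia membranes 1 and 3 and 0.267 to 0.580 for the other 14 pairs of membranes. With those 2 membranes counted as 1, the Dbh and Slc6a3 differences given below became 1.02 and -0.27.

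Of the 4 genes, the enzyme Dbh and the transporter Slc6a3 were above background on all 6 membranes, while Ddc and Slc18a2 were above background on none. In membrane order, Dbh had intensities of 33087, 18223 and 27875 under normoxia against 46698, 27903 and 58947 under chronic hypoxia. On this scale the groups overlapped, since chronic hypoxia membrane 2 lay between normoxia membranes 3 and 1. Slc6a3 had 50204, 24903 and 64432 in normoxia and 47027, 19384 and 47071 in chronic hypoxia. The values of both genes on chronic hypoxia membrane 3 hold that membrane's higher background. Over the membrane median, Dbh stood at 42536 and Slc6a3 at 30660 there, against 44994 and 45323 on chronic hypoxia membrane 1. Membrane 2 was the dimmest of its group for both genes. Normoxia membrane 3 lay within 5% of the scanner's ceiling of 65535 for Slc6a3, so that value is not exact. Dbh was near the ceiling on no membrane.

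The 2 other genes could not be told from background. Ddc, which makes dopamine and serotonin from their amino acid precursors, had 2271, 3512 and 2472 in normoxia and 2327, 2891 and 16803 in chronic hypoxia. These were 0.848 to 1.37 times the membrane median. Slc18a2, which fills vesicles with dopamine and other monoamines, had 2842, 3093 and 2369 in normoxia and 1186, 3609 and 15095 in chronic hypoxia, or 0.696 to 1.17 times the median. The high values of both genes on chronic hypoxia membrane 3 are at or under that membrane's own background level. A signal under the limit was not detectable on these membranes and need not be absent, and no fold is given for Ddc and Slc18a2. With limits at 2 or 5 times the spread, Dbh and Slc6a3 were again above background on 6 membranes, and they were the only ones of the 4 that were.

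**Figure D1:**
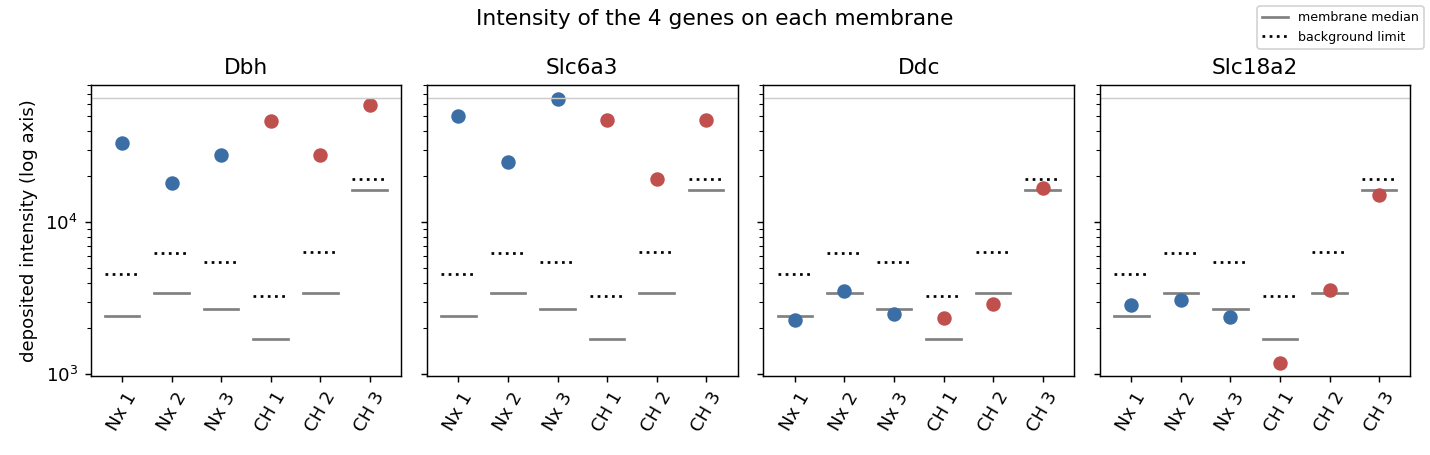
Deposited intensity (log axis) of Dbh, Slc6a3, Ddc and Slc18a2 on the 3 normoxia (Nx, blue) and 3 chronic hypoxia (CH, red) membranes, with each membrane's median (grey bar) and background limit (dotted bar); the thin line at the top is the ceiling of 65535. Dbh and Slc6a3 lie above the limit on all 6 membranes, and Ddc and Slc18a2 lie under it on all 6.

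The promoters of the 2 detected genes are shown because the comparison is one of oxygen, and the shared core of hypoxia response elements is a short motif that can be searched for. Each sequence is the 250 bases before the start site in the RefSeq promoter table of build GRCr8, on the gene's own strand, with CGTCA in capitals, which is the cAMP response core TGACG read on the other strand. Dbh lies on the plus strand (chr3:30886078-30886327) and Slc6a3 on the minus strand (chr1:31578963-31579212).
Dbh: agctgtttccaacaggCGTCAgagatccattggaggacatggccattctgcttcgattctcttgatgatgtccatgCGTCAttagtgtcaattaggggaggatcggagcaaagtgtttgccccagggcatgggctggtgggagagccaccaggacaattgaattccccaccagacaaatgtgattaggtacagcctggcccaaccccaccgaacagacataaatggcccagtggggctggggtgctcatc
Slc6a3: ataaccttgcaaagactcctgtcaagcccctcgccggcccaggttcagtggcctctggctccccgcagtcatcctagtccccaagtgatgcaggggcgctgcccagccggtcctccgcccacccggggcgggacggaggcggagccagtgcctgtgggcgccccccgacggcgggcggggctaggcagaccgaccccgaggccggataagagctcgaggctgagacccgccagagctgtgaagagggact
For the hypoxia response core only the form ACGTG was searched, on both strands. It was in neither window, against 16.6% of 33469 RefSeq promoter windows of that length. The core TGACG was found at 2 places in Dbh, starting 234 and 174 bases before the start site, and at none in Slc6a3, against 18.2% of all windows with at least 1. These are matches of letters in a short window and say nothing of binding in these cells.

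The surroundings of the spots differed between the 2 detected genes. By the position code, 8 spots adjoin Dbh, and all 8 were above background on at least 3 membranes. On 1 side lies acetylcholinesterase (Ache), which breaks down acetylcholine, with 46038 on normoxia membrane 2 and values within 5% of the ceiling on the other 5 membranes. On the opposite side lies alkaline phosphatase, with 15871, 6812 and 17201 in normoxia and 13954, 7639 and 43915 in chronic hypoxia. Very long chain acyl-CoA dehydrogenase (VLCAD), of fatty acid oxidation, was the third neighbour above background on all 6 membranes. The others were long chain acyl-CoA dehydrogenase (LCAD) of the same pathway, glutathione reductase and the ribosomal proteins L12, L21 and S19, each on 3 to 5 membranes.

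Around Slc6a3 fewer spots were above background. Of its 8 adjoining spots, 4 were above background on no membrane. The potassium channel RB-IRK2, the L-proline transporter and the serotonin transporter were on 2 membranes each, and the kidney peptide transporter PEPT2 on 5. The serotonin transporter, a relative of Slc6a3 at the next position, had 3930, 9628 and 9100 under normoxia against 3045, 4436 and 17567 under chronic hypoxia, and was above background on normoxia membranes 2 and 3. Ddc adjoins short chain acyl-CoA dehydrogenase (SCAD), which had 24675 to 64876, and acyl-CoA oxidase, both above background on all 6 membranes. Cytochrome P-450 4A1 beside Ddc was on 4 membranes and the type I-alpha regulatory chain of protein kinase A on 1. All 5 spots around Slc18a2 were at background. Over the array, 45.3% of the 190 spots beside a gene above background on all 6 membranes were above background on at least 3, against 6.29% of the 986 spots not beside such a gene. The part of neighbouring signal in the Dbh value was not tested.

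**Figure D2:**
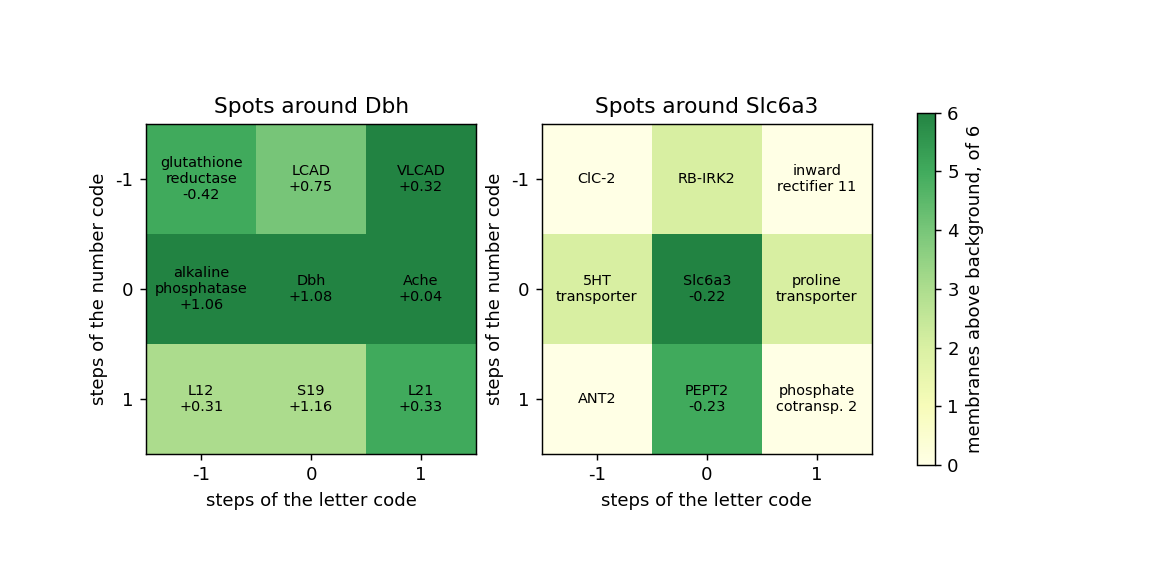
Spots around Dbh (left) and Slc6a3 (right) by the number and letter of the position code, coloured by the count of membranes, of 6, on which a spot was above background; the number in a cell is the normalized log2 difference, chronic hypoxia minus normoxia, given for spots above background on at least 3 membranes. Every spot around Dbh reaches at least 3 membranes, and 7 of 8 around Slc6a3 reach 2 or fewer.

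Between chronic hypoxia and normoxia neither detected gene passed the test, and their differences lay on opposite sides of 0. Intensities were background corrected, put on the log2 scale and quantile normalized, and chronic hypoxia was compared with normoxia in limma over 1038 tested genes. On the normalized log2 scale, in membrane order, Dbh read 14.59, 14.48 and 13.80 under normoxia against 15.36, 15.11 and 15.65 under chronic hypoxia. The groups did not overlap on this scale, with every chronic hypoxia membrane above every normoxia membrane. The means were 14.29 ± 0.43 (SD, n = 3) and 15.37 ± 0.27 (SD, n = 3). The log2 difference was 1.08 with an SE of 0.55, or 2.12-fold, with a 95% interval of -0.13 to 2.29 (limma adjusted p = 0.645, unadjusted p = 0.0745). The two-sided exact permutation p was 0.1, the smallest that 3 against 3 membranes can give.

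The call of 0 genes over the array (0%) sets the background for that result. The lowest limma adjusted p of any gene was 0.63. Before adjustment, p was under 0.05 for 75 genes (7.23%). Groups that did not overlap with chronic hypoxia higher were found for 67 of 1038 tested genes (6.45%), and with chronic hypoxia lower for 77 (7.42%). Chronic hypoxia was higher without overlap for 10 (6.58%) of the 152 genes that passed the background limit on 3 or more membranes and for 5 of the 49 genes above background on all 6 membranes (10.2%). Of those 49 genes, 3 had a larger positive difference than Dbh. Alkaline phosphatase and SCAD were also among the 5, and alkaline phosphatase, the spot beside Dbh, differed by 1.06 with an SE of 0.59 (limma adjusted p = 0.645).

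Quantile normalization sets each value from its rank on the membrane, so the separation of the Dbh groups is that of its ranks and no second observation. Among the 1185 genes Dbh ranked 31, 33 and 51 by brightness under normoxia against 14, 21 and 8 under chronic hypoxia. Without normalization between membranes, or with membranes set to a common median, the Dbh groups overlapped and the log2 difference was 0.64 and 0.79. With cyclic loess they did not overlap, with a difference of 0.86.

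The neighbours of Dbh had a mean log2 difference of 0.44, with 7 of 8 higher in chronic hypoxia and a range of -0.42 to 1.16. Averaged over the 8 spots, normoxia membranes stood at 12.92 ± 0.06 (SD, n = 3) and chronic hypoxia membranes at 13.37 ± 0.54 (SD, n = 3), for which the exact permutation test gave p = 0.4. Ribosomal protein S19 had the top of that range and Ache, near the ceiling, 0.04. Dbh less the mean of its neighbours differed by 0.64 between the groups, with an exact permutation p of 0.2. No such comparison is given for Slc6a3, since 7 of its 8 neighbours were above background on 2 membranes or fewer. The choice to set Dbh against its neighbours was made after the data were seen.

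Slc6a3 showed a small difference of the other sign. On the normalized log2 scale it read 15.23, 15.23 and 15.43 under normoxia against 15.41, 14.89 and 14.93 under chronic hypoxia. The groups overlapped, because chronic hypoxia membrane 1 lay among the normoxia values. The means were 15.30 ± 0.11 (SD, n = 3) and 15.08 ± 0.29 (SD, n = 3). The log2 difference was -0.22 with an SE of 0.53 and a 95% interval of -1.39 to 0.94 (limma adjusted p = 0.925, exact permutation p = 0.3). As a ratio of chronic hypoxia to normoxia that interval runs from 0.382 to 1.92. Its ranks were 17, 17 and 12 in normoxia and 13, 25 and 24 in chronic hypoxia.

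The change of Dbh was also set against that of Slc6a3 on the same membrane, on the normalized scale. Both values are set by ranks on the membrane, so this contrast is no second observation either. The normalized log2 intensity of Dbh less that of Slc6a3 was -0.64, -0.76 and -1.63 under normoxia against -0.05, 0.22 and 0.72 under chronic hypoxia. All chronic hypoxia values lay above all normoxia values, as they did for Dbh alone. How often other pairs of genes separate in this way was not computed. The means were -1.01 ± 0.54 (SD, n = 3) and 0.29 ± 0.39 (SD, n = 3). They differed by 1.30 with an SE of 0.39, and the exact permutation p was 0.1. That SE comes from the SDs of this contrast alone. The SEs of Dbh and Slc6a3 above are from limma, which draws on all tested genes, so the contrast cannot be called more precise from them. The value for normoxia membrane 3 contains the near-ceiling reading of Slc6a3. Since probes differ in how brightly they report, only the change of this quantity can be read. It was chosen after the data were seen.

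**Figure D3:**
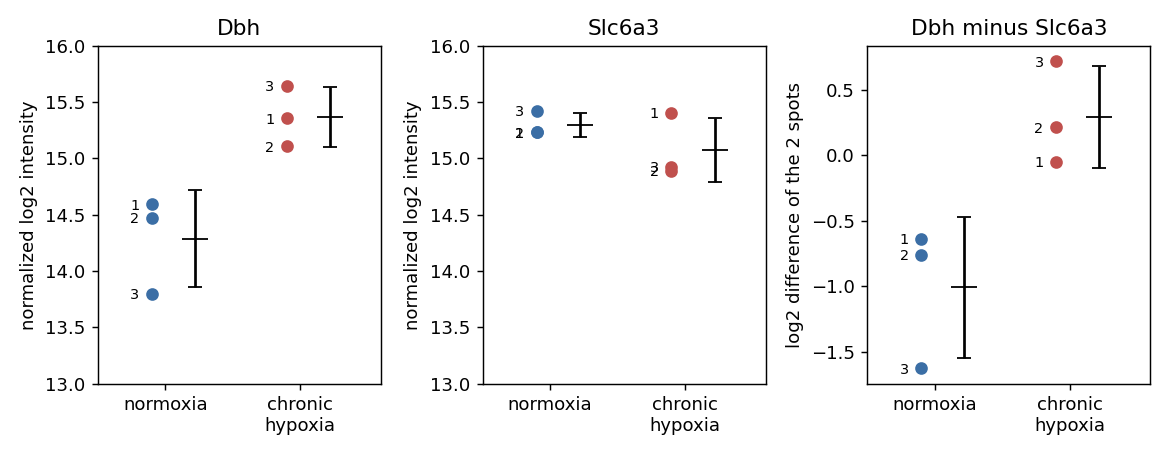
Normalized log2 intensity of Dbh and Slc6a3, and Dbh less Slc6a3 on the same membrane, for normoxia (blue) and chronic hypoxia (red); points are membranes with their numbers, and bars are the mean and SD of 3 membranes. Dbh values do not overlap between the groups, Slc6a3 values do, and the difference of the 2 spots runs from -1.63 to -0.64 in normoxia and from -0.05 to 0.72 in chronic hypoxia.

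The membranes differ in the step size of their deposited values, which was estimated here from the values themselves. Membranes with the same step are here called a scan format, a name chosen here and not taken from the labels. Deposited intensities come in steps of 51.5 on normoxia 1 and chronic hypoxia 1 and of 103 on normoxia 2, normoxia 3 and chronic hypoxia 2, while chronic hypoxia 3 has neither step. Within the first format, 1 membrane against 1, Dbh differed by 0.76 and Slc6a3 by 0.17. Within the second, 1 chronic hypoxia membrane against 2 of normoxia, they differed by 0.97 and -0.44. With the format as a block Dbh differed by 0.88 (limma adjusted p = 0.81). That value leaves out chronic hypoxia membrane 3, where Dbh was highest on the normalized scale.

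**Figure D4:**
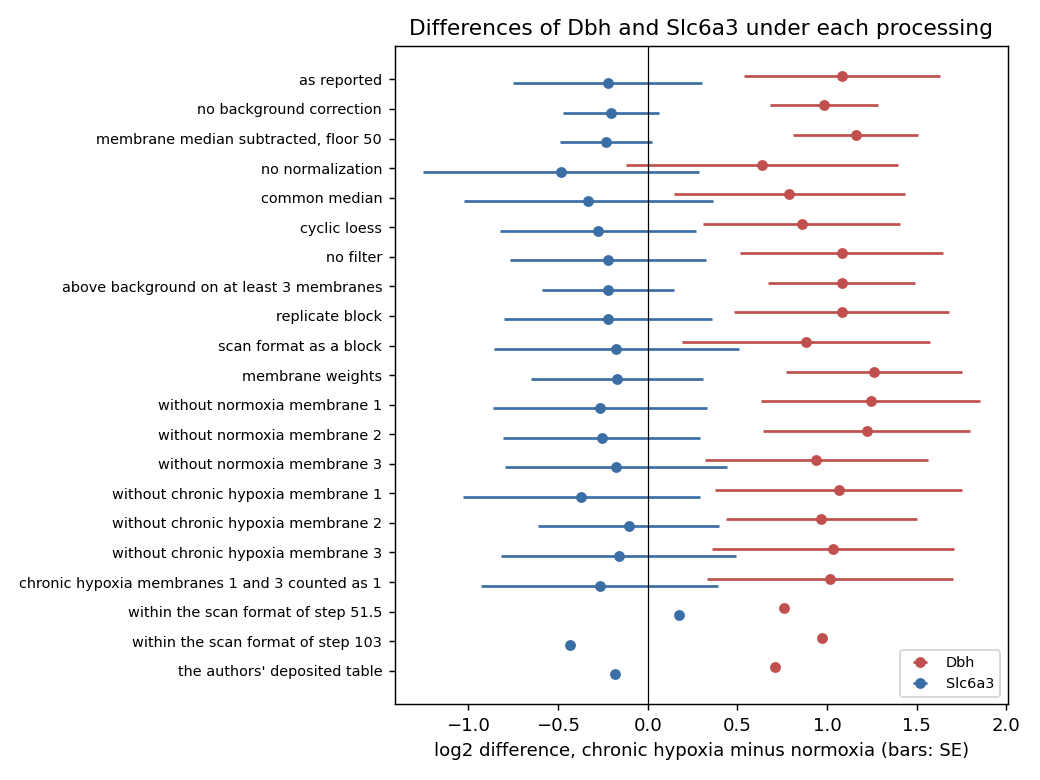
Log2 difference, chronic hypoxia minus normoxia, of Dbh (red) and Slc6a3 (blue) under each way of processing, with SE bars where a fit gives one; the bottom 3 settings have no error. Dbh lies between 0.64 and 1.26 throughout, and Slc6a3 between -0.49 and 0.17.

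The wider pathway was mostly at background, as was most of the array. Of 29 catecholamine genes listed, 15 were matched to row names, from the 4 genes above to the receptors that read dopamine, noradrenaline and adrenaline. Of the 15, 2 were above background on at least 3 membranes, namely Dbh and Slc6a3, and 12 on none. The chromaffin granule transporter Slc18a1, which loads amines into vesicles in endocrine cells, was above background on normoxia membrane 3 with 6409. Its other values were 2996 and 3718 in normoxia and 1702, 4654 and 15095 in chronic hypoxia. No dopamine receptor (Drd1, Drd2, Drd4) and none of the 7 adrenoceptors was above background on any membrane.

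Of the 15 rows 13 passed the filter on dim spots. None was called in either direction. In chronic hypoxia 6 were higher and 7 lower, and their differences had a median of -0.05 on the log2 scale, against 0.03 over all tested genes, of which 51.8% were higher. Of the 13, 11 were above background on at most 1 membrane, so this count and median are mostly of background readings. Over Dbh and Slc6a3 alone the median was 0.43. Groups did not overlap for 2 of the 13, Dbh and the beta 1 adrenoceptor Adrb1, against 13.9% of all tested genes. Adrb1, the receptor through which noradrenaline speeds the heart, stood at 9.40 ± 0.19 (SD, n = 3) under normoxia and 10.78 ± 0.20 (SD, n = 3) under chronic hypoxia on the normalized log2 scale (limma adjusted p = 0.645). Its intensities of 1802, 2478 and 1648 in normoxia and 1859, 3924 and 16515 in chronic hypoxia all lie under the background limit, so no fold is given.

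**Figure D5:**
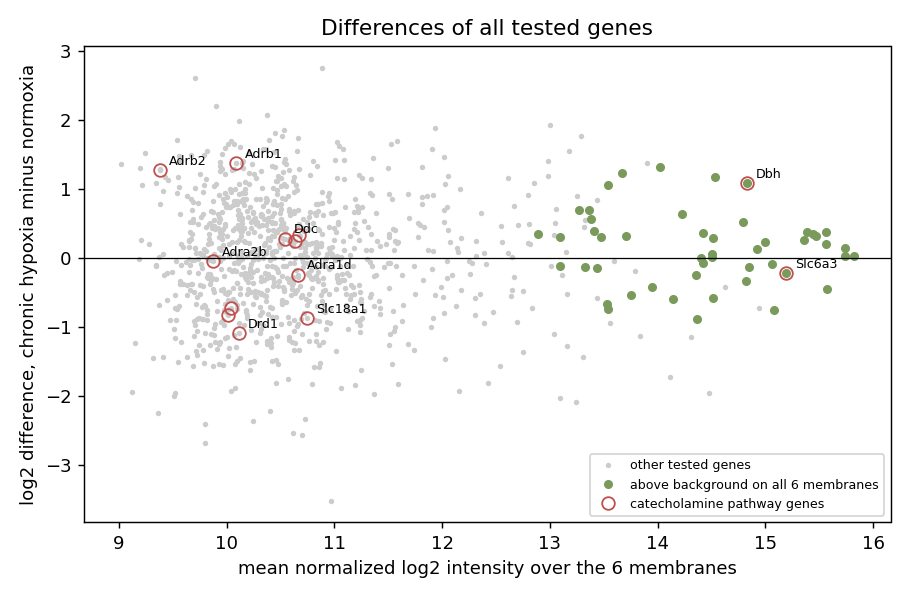
Log2 difference, chronic hypoxia minus normoxia, against mean normalized log2 intensity for the 1038 tested genes, with the 49 genes above background on all 6 membranes in green and the 13 tested catecholamine pathway genes ringed in red. Dbh and Slc6a3 lie among the bright genes on the right, at 1.08 and -0.22, and the other 11 ringed genes lie among the dim ones.

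Markers of the cell types that make or surround catecholamine cells were read on the same membranes. Of 16 glomus cell spots, Dbh, Slc6a3, the prohormone enzyme Cpe and the GABA-making enzyme Gad1 were above background on all 6 membranes. The vesicular acetylcholine transporter Slc18a3 was on 3, and Slc18a1 and the vesicle fusion protein Snap25 on 1 each. The granule proteins Chga and Scg2, the vesicle protein Syp and 6 others of the list were above background on none. The summed level of the list, in multiples of the membrane median, ran from 35.3 to 89.0 in normoxia and from 22.6 to 86.4 in chronic hypoxia, lowest on chronic hypoxia membrane 3, whose median is the highest. That sum holds Dbh and Slc6a3 themselves, and Cpe, which was near the ceiling on normoxia membrane 3. Without these 3 genes it ran from 15.1 to 30.6 in normoxia and from 13.5 to 18.5 in chronic hypoxia over 13 spots.

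Sympathetic neurons also make Dbh. Of the 4 of their markers analysed here, Ache was above background on all 6 membranes, the peptide galanin (Gal) on 1, and Npy and Ngfr on none. The summed level ran from 17.1 to 30.6 in normoxia and from 6.90 to 42.8 in chronic hypoxia, nearly all of it the Ache spot near its ceiling. Without Ache the other 3 spots summed to 3.60 to 4.16 and 3.01 to 4.36, about 1 median each. Of the 4 endothelial spots summed here Nos3 reached 6 membranes and Edn1 reached 3, with sums of 13.5 to 31.6 and 7.20 to 42.5. The vascular cell adhesion protein Vcam1, also on the endothelial list and on the array, was above background on no membrane and is not in these sums. Nos3 was near the ceiling on 4 membranes, and without it the sums were 3.33 to 7.18 and 2.33 to 4.03. Of 5 fibroblast and matrix spots Mmp2 reached 4 membranes, and the other 4 spots reached none, with sums of 5.33 to 11.8 and 5.33 to 6.91. The 4 glial spots (sums of 3.40 to 4.57 and 3.66 to 3.86) had no member on more than 1 membrane, and the 4 immune spots (3.23 to 4.06 and 4.02 to 4.27) had none on any. The part of cell makeup in the Dbh value was not tested.

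The genes most like Dbh across the 6 membranes were sought among 87 others above background on at least 5 membranes, by Pearson's r of normalized log2 intensity. They were the mitochondrial chaperone HSP60 (0.94), ribosomal protein S12 (0.91), mitochondrial aldehyde dehydrogenase 2 (0.90), polyubiquitin (0.85) and alkaline phosphatase (0.79). For Slc6a3 they were ribosomal protein L10 (0.89), endothelin converting enzyme (0.85), gastric intrinsic factor (0.78), plasma glutathione peroxidase (0.71) and aldolase B (0.68). Neither gene was on the list of the other, and Dbh and Slc6a3 correlated at -0.59. The 6 points share their membranes' scale and background, and the r values are descriptions.

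In the authors' deposited table, which gives 1 normalized intensity per condition, Dbh is listed with 24129 for normoxia and 39428 for chronic hypoxia, or a ratio of 1.63. Of the 132 genes above 0 in both conditions in the authors' deposited table, 21 had a higher ratio. Slc6a3 had 40286 and 35508 in the authors' deposited table, a ratio of 0.881, with 79 of the 132 above it. Ddc and Slc18a2 are listed at 0 in both conditions in the authors' deposited table.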

How the data were processed

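Per the labels' protocols, amplified RNA was reverse transcribed with 32P-dCTP and hybridised to nylon membranes that were read with AtlasImage V2.0. The deposited intensity files hold 1 linear intensity per gene and membrane, not normalized. The authors also averaged and normalized the membranes to 1 intensity per condition, per the labels. How they removed background there is not given in the sources used here.

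Intensities were corrected with normexp (offset 50), put on the log2 scale and quantile normalized. The package was limma 3.58.1, run in R 4.3.3. Tested genes had to exceed the 25th percentile of a membrane on 3 or more of the 6. They were tested with lmFit and eBayes, group as the only term, with Benjamini-Hochberg adjustment (called at adjusted p under 0.05). Exact permutation tests ran over the 20 assignments of the membranes. On simulated data the fit gave back the direction and approximate size of the changes made but called none of the changed genes, so a gene that is not called here need not be unchanged. The number of membranes, 3 a group, limits precision. Tables and plots used Python 3.11.15, numpy 2.4.6, pandas 2.3.3 and matplotlib 3.10.9.

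The members, lists and background limit were chosen with earlier results of these data known. Named genes are the 4 members, pathway genes and adjoining spots above background, and the 5 genes most like Dbh and Slc6a3; other genes were named after their values were seen. Symbols were assigned by hand from deposited names and found in the RefSeq table of assembly GRCr8. One marker of the sympathetic neuron list is not reported here. Alternatives covered background, normalization, filter, blocks, weights and left-out membranes.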

Additional observations from a re-analysis of the deposited data

How the results depend on the processing

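Over 20 alternatives the Dbh difference remained above 0, from 0.64 without normalization to 1.26 with membrane weights, and no limma adjusted p was under 0.295. Leaving out 1 membrane gave 0.94 to 1.24, and a log2 difference of 0.71 came from the authors' deposited table. Slc6a3 was below 0 in 19 of 20, the exception being 0.17 within the scan format of step 51.5, and leaving out 1 membrane gave -0.37 to -0.11. Dbh less Slc6a3 ran from 0.59 within that format to 1.51 without normoxia membrane 1. The count of genes called was 0 in all but 1 alternative. With the membrane median subtracted and a floor of 50, 14 genes were called and Dbh was not among them (limma adjusted p = 0.429). The cause was not tested. The pathway median was -0.52 within the format of step 51.5, 0.37 within that of step 103, and 0.43 over Dbh and Slc6a3 alone, when 3 membranes above background were required, and -0.16 to 0.11 with 1 membrane left out.

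Membrane numbers occur in both groups, but same-numbered membranes deviated together only weakly (r of 0.09, 0.11 and 0.02 across genes). For normoxia membrane 3, r was 0.033 with chronic hypoxia membrane 1 and 0.023 with chronic hypoxia membrane 3, too close to tell apart. With the number as a replicate block, 0 genes were called, Dbh differed by 1.08 (limma adjusted p = 0.605) and Slc6a3 by -0.22. Spots near background and near the ceiling limit what these membranes can show.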
